A study of Mus musculus with 30 samples.

Results

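Collagen leaves the secretory pathway only after some of its proline and lysine residues have been hydroxylated, and it is stiffened outside the cell by crosslinks between lysines. The 10 genes described here encode the enzymes of both steps and were taken by symbol from the 55450 gene rows of the deposited count table. They are the lysyl oxidases Lox, Loxl1, Loxl2, Loxl3 and Loxl4, the lysyl hydroxylases Plod1, Plod2 and Plod3, and the catalytic alpha subunits of prolyl 4-hydroxylase, P4ha1 and P4ha2. All 10 symbols were found, and each is 1 protein-coding gene of GENCODE M21. In GRCm38, P4ha1 lies at chr10:59323296-59373304 and P4ha2 at chr11:54100095-54131665, both on the plus strand, Plod2 at chr9:92542223-92608428 (plus), Loxl1 at chr9:58287738-58313186 (minus) and Loxl2 at chr14:69609068-69695834 (plus).

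Prolyl 4-hydroxylase acts in the endoplasmic reticulum and gives the collagen triple helix its thermal stability. The PLOD enzymes hydroxylate lysines there, PLOD2 mainly those of the telopeptides, which are the ends of the molecule where crosslinks start, and PLOD3 also transfers sugars to hydroxylysine. The lysyl oxidases are secreted copper enzymes that oxidize lysine and hydroxylysine in collagen and elastin. In the liver these enzymes are best known from fibrosis, in which activated hepatic stellate cells make most of the matrix, while hydroxylases of the endoplasmic reticulum are also made by other liver cells. Several of the genes are textbook targets of hypoxia-inducible factor.

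The values are liver mRNA of male mice on a C57BL/6N background, 1 poly(A) library per mouse, in 3 experiments of 5 control and 5 knockout mice each. All 30 mice carried floxed Cebpa alleles and were fed HFCFD, a diet rich in fat, cholesterol and fructose that induces steatohepatitis, so no chow-fed liver is among them. In HFCFD2W the diet lasted 2 weeks and the knockout mice were Cebpa ΔHep, in which Cre recombinase is driven constitutively by the albumin promoter and CEBPA is therefore absent from hepatocytes before adulthood. In HFCFD8W+T10D and HFCFD12W+T10W the knockout mice were Cebpa ΔHep,ERT2, in which albumin-ERT2-Cre acts after tamoxifen. There tamoxifen was given for the last 10 days of HFCFD8W+T10D and the last 10 of 22 weeks of HFCFD12W+T10W, to Cre-negative Cebpa fl/fl controls as well. The labels of HFCFD8W+T10D name 8 weeks of diet, and whether the 10 days fall within them is not given in the sources used here. The albumin promoter aims the deletion at hepatocytes, and the tissue sequenced was whole liver. Ages were not given in the sources used here.

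The libraries held 7996142 to 10257364 counts. Cebpa, the targeted gene, was at 149 to 193 CPM (counts scaled to a common library total) in the control mice of HFCFD2W and at 3.43 to 5.67 CPM in the knockout mice. In the inducible experiments the knockout mice kept more, 11.1 to 25.1 CPM in HFCFD8W+T10D and 18.7 to 23.8 CPM in HFCFD12W+T10W, against 82.4 to 156 CPM in their controls. Levels per mouse are given below in CPM after TMM scaling over all 30 libraries. Levels of different genes are compared in TPM, which correct for transcript length. Hepatocyte markers were high in every group, with a summed level of 60999 to 165754 CPM for 6 genes. In whole liver, fewer cells of a type and less RNA per cell cannot be told apart.

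The abundant enzymes of these livers were hydroxylases. In the Cebpa fl/fl mice of HFCFD2W, the mean level per length was 21.2 TPM for Plod1, 9.28 TPM for Plod3, 2.91 TPM for P4ha2 and 1.92 TPM for P4ha1, while the remaining 6 genes lay between 0.0360 TPM for Lox and 0.662 TPM for Loxl2. The same order of Plod1 over Plod3 over the remaining genes held in all 6 groups. Plod1 alone made up 35.6% to 60.7% of the summed TPM of the 10 genes in single mice. Many lysyl oxidase values therefore rest on few reads, and Lox had at most 3 counts in any control library of HFCFD2W or HFCFD12W+T10W.

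**Figure D1:**
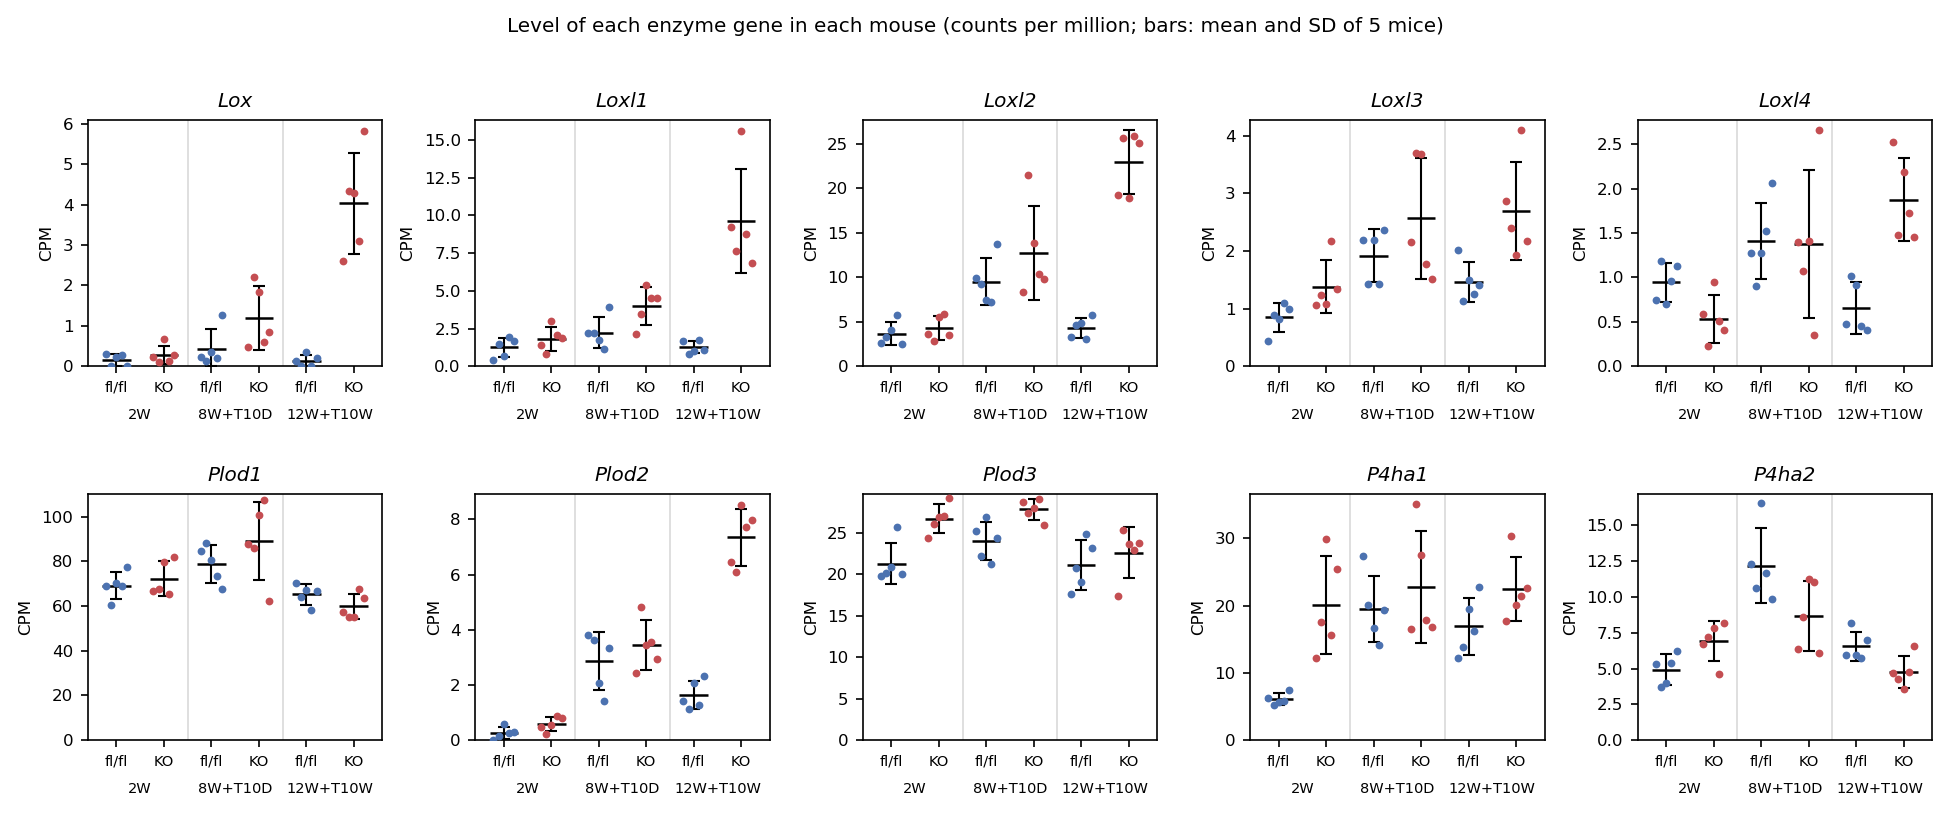
CPM (y axes, starting at 0, on a scale of their own for each gene) of the 10 enzyme genes in each of the 30 mice, by experiment and genotype (blue, Cebpa fl/fl; red, knockout, KO). Horizontal bars are means of 5 mice and vertical bars the SD, ending at 0 where the SD is larger than the mean. Lox, Loxl1, Loxl2, Loxl4 and Plod2 have all 5 knockout mice of 12W+T10W above all 5 of its controls, and P4ha1 has this pattern in 2W.

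A pair of reference promoters is shown first, because P4ha1 and P4ha2 encode the alpha subunits of separate prolyl 4-hydroxylase isoenzymes and had unlike differences in these livers. They are the 250 bases before the RefSeq start of each gene (GRCm38.p6), P4ha1 at chr10:59323046-59323295 and P4ha2 at chr11:54100674-54100923, both on the plus strand. Neither window overlaps an exon of GENCODE M21, and that of P4ha2 lies within an intron of a longer transcript of the gene. Capitals mark ACGTG, a form of the core of the hypoxia response element, or its complement, CACGT. The form GCGTG was not searched or marked.
P4ha1: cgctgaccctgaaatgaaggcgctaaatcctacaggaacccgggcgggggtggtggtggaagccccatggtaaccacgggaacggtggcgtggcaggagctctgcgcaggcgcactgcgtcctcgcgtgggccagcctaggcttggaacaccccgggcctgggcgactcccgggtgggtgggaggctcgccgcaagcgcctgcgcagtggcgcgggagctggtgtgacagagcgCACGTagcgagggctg
P4ha2: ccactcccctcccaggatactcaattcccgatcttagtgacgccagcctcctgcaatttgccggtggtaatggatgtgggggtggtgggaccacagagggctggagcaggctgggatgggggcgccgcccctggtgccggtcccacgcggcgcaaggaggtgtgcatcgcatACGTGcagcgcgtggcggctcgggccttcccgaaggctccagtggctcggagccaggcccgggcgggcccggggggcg

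Both promoters hold this form of the hypoxia core once, starting 16 bases before the start in P4ha1 and 78 bases before it in P4ha2. Of the 5 members in the reference table, which also holds Loxl4, Plod1 and Plod3, Plod3 is the other one with this form. The letters ACGTG occur on either strand in 16.6% of all 32851 windows of this length. The C/EBP site TTGCNNAA, searched on both strands, occurs in 9.56% of the windows and in 0 of these 5. The CCAAT box, searched in the same way, occurs in 33.8% of the windows and, of the 5, in Plod3. These are matches of letters, with no binding measured. A fixed pattern in so short a window can miss C/EBP sites. The Spp1 promoter site through which the paper found CEBPA to act does not match it.

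The first comparison asked which enzymes differed after constitutive loss of hepatocyte CEBPA and 2 weeks of diet. P4ha1, the alpha subunit of the main prolyl 4-hydroxylase isoenzyme, rose. Its level was 5.19, 5.71, 5.79, 6.23 and 7.52 CPM in the 5 Cebpa fl/fl mice and 12.2, 15.7, 17.5, 25.5 and 29.9 CPM in the 5 Cebpa ΔHep mice. Every knockout mouse was above every control, and the knockout mice varied more among themselves. The difference was 1.72 ± 0.23 on the log2 scale (SE, n = 5 per genotype), a 3.29-fold higher level (adjusted p = 2.88e-04, edgeR quasi-likelihood test).

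Plod3, the lysyl hydroxylase that also glycosylates collagen, rose by much less. Its controls were at 19.7, 19.999, 20.2, 20.9 and 25.6 CPM and its knockout mice at 24.4, 26.02, 26.9, 27.1 and 29.1 CPM. The genotypes overlapped by 1 control mouse that stood apart from the other 4. The log2 difference was 0.33 ± 0.09 (adjusted p = 0.0229, edgeR), and the call was lost on leaving out control mouse 1, 2 or 5 or knockout mouse 6, with an adjusted p of up to 0.0622.

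These 2 of the 6 members with enough counts to test were called, both higher, against 16.7% of all 11068 genes called in either direction and 8.6% called higher. Of all genes, 6.33% had every knockout mouse above every control, as P4ha1 did. Among the 4 that were tested and did not pass, P4ha2 had a log2 difference of 0.49 ± 0.19 (adjusted p = 0.0905, edgeR), Loxl1 of 0.52 ± 0.40, Loxl2 of 0.21 ± 0.27 and Plod1 of 0.06 ± 0.08. Lox, Loxl3, Loxl4 and Plod2 had too few counts. Their values from the fit without the low-count filter were 0.70 ± 0.78 for Lox, 0.68 ± 0.35 for Loxl3, 1.05 ± 0.61 for Plod2 and -0.82 ± 0.43 for Loxl4, none with an adjusted p under 0.05, and the genotypes overlapped for each of them.

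The matrix genes that these enzymes act on were set beside them in HFCFD2W. Of 14 substrates, which are fibrillar, basement membrane and microfibrillar collagens and elastic fibre proteins, 3 were called, all higher. Of all genes, 16.7% were called and 8.6% called higher. The 3 were the basement membrane chains Col4a1 (log2 difference 0.72) and Col4a2 (0.68) and the fibrillar chain Col5a2 (0.89). Of 25 partners, which are other enzymes, chaperones and proteases of collagen maturation, 17 were tested. P3h2, a prolyl 3-hydroxylase, was higher by 1.49 on the log2 scale, and Tmem38b, an ion channel of the endoplasmic reticulum that collagen synthesis needs, was lower by -0.43. Among 12 markers of stellate cells and fibroblasts, Rgs5 was called higher, and the summed level of the 12 was 161 to 258 CPM in controls and 160 to 304 CPM in knockout mice.

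Of 20 other textbook targets of hypoxia-inducible factor, 15 were tested in HFCFD2W and 4 were called. Pfkfb3, which activates glycolysis, was higher by 2.14, the stress-induced mTOR inhibitor Ddit4 by 1.52 and the glucose transporter Slc2a1 by 0.82 on the log2 scale, and the oxygen-sensing prolyl hydroxylase Egln3 was lower, at -0.76. The median of the 15 was 0.11, and that of all genes 0.01.

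The second comparison asked the same for induced loss, with tamoxifen over the last 10 days. None of the members was called: 0 of 9 tested, against 17.1% of 11992 genes. DESeq2 also called 0. At an unadjusted p under 0.05 by edgeR there were 3, a count without a reference, since the share of all genes at that threshold is not given here. These 3 were Loxl1, which oxidizes elastin in particular (log2 difference 0.84 ± 0.32, adjusted p = 0.0947, edgeR), Plod3 (0.23 ± 0.09, adjusted p = 0.110, edgeR) and P4ha2 (-0.48 ± 0.20, adjusted p = 0.125, edgeR).

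P4ha1 was at 14.1, 16.7, 19.4, 20.04 and 27.3 CPM in the Cebpa fl/fl mice of HFCFD8W+T10D and at 16.6, 16.8, 17.9, 27.5 and 35.2 CPM in the Cebpa ΔHep,ERT2 mice. The genotypes overlapped over most of their range, and the log2 difference was 0.25 ± 0.23. P4ha2 ran from 9.83 to 16.6 CPM in controls and from 6.07 to 11.3 CPM in knockout mice. Lox was too low to test, with 4 controls at 0.129 to 0.347 CPM, the fifth at 1.28 CPM and the knockout mice at 0.468 to 2.22 CPM. Without the filter its log2 difference was 1.37 ± 0.58 (adjusted p = 0.157, edgeR).

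The mice of this experiment differed among themselves. Control mouse 5 held the highest value of its group in 5 of the 10 genes, Lox, Loxl1, Loxl2, Loxl3 and Loxl4, which are all the lysyl oxidases. Knockout mouse 2 held the highest value of its group in 5 genes, among them Lox at 2.22 CPM, Loxl2 at 21.5 CPM, Plod2 at 4.85 CPM and P4ha1 at 35.2 CPM. The same mice were high in the summed level of the 12 stellate cell and fibroblast markers, 479 CPM in control mouse 5 with its group at 323 to 479 CPM, and 537 CPM in knockout mouse 2 with its group at 376 to 595 CPM. The part of these markers in the result was not tested. Without control mouse 5, Loxl1 had a log2 difference of 1.16 (adjusted p = 0.0285, edgeR) and was the 1 member called.

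Of the 14 substrates 8 were called at this time, all higher, with a median of 0.87. Examples are Col4a2 at 0.90, Col5a1 at 0.97, Eln, which encodes elastin, at 1.47, Col3a1 at 1.18 and Col1a1 at 1.33 on the log2 scale. Of the 20 partners tested, Colgalt1, Bmp1 and Adamts2 were higher, at 0.48, 0.41 and 0.68. Colgalt1 adds galactose to hydroxylysine, and Bmp1 and Adamts2 are the proteases that trim the C- and N-propeptides of procollagen. Tmem38b was again lower, at -0.36. The median of the 9 tested members was 0.25 and that of all genes 0.01.

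Cell type markers differed at this time too. Of 7 macrophage markers 6 were higher, with summed levels of 256 to 393 CPM in controls and 382 to 659 CPM in knockout mice. Of the 5 cholangiocyte markers tested 3 were higher (4.57 to 13.6 and 12.05 to 17.97 CPM over the 6 of the list), and of 6 hepatocyte markers 3 were lower (113405 to 142513 and 77228 to 126076 CPM). The hepatocyte markers did not all go down, and DESeq2 called 3 of them lower and 1 higher. Of the 12 stellate cell and fibroblast markers Lum was higher, and of 6 endothelial markers Stab2 was lower (164 to 191 and 120 to 194 CPM). Their part in the differences of the substrates and enzymes was not tested.

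After 10 weeks of tamoxifen, 6 of the 10 members were called, all higher: the 5 lysyl oxidases and Plod2. In this experiment 51.1% of 12463 genes were called and 27.4% were called higher, so a call alone says little about a gene. Of the 6, all but Loxl3 also had a fold change above 2, which makes 5 of 10 members against 17.7% of all genes. In the same 5 members every knockout mouse was above every control, against 19.5% of all genes. Lox and Loxl4 are in each of these counts and passed the low-count filter through the knockout mice alone. Their control libraries held 0 to 3 and 4 to 9 counts, so once tested these genes could only be called higher. Loxl1 is in each of these counts too. Its control libraries held 7 to 15 counts and would not have passed the filter by themselves. Without the filter Lox, Loxl4 and Loxl1 were also called. The median log2 difference was 1.24 over the members and 0.01 over all genes.

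Lox, the founding member of its family and the main crosslinker of fibrillar collagen, was at or close to 0 in the Cebpa fl/fl mice, with values of 0, 0, 0.119, 0.202 and 0.344 CPM. The Cebpa ΔHep,ERT2 mice were at 2.61, 3.10, 4.30, 4.33 and 5.81 CPM. All of them were above all controls (adjusted p = 4.60e-06, edgeR). Since no control library exceeded 3 counts, the fold change is a lower bound, and against 3 counts in each control library Lox was at least 11.9-fold higher.

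Loxl1, which works on elastic fibres, had 0.793, 1.03, 1.11, 1.66 and 1.72 CPM in controls and 6.86, 7.65, 8.74, 9.23 and 15.6 CPM in knockout mice. The log2 difference was 2.97 ± 0.28, with no overlap (adjusted p = 3.95e-06, edgeR). Without the knockout mouse at 15.6 CPM it was 2.72. Loxl2, which crosslinks the type IV collagen of basement membranes as well as fibrillar collagen, had 3.10, 3.32, 4.64, 4.82 and 5.75 CPM in controls and 18.97, 19.2, 25.1, 25.6 and 25.96 CPM in knockout mice. This is 2.44 ± 0.17 on the log2 scale (adjusted p = 3.38e-07, edgeR), the member with the smallest p. Loxl2 was also the most abundant lysyl oxidase per length there, at a mean of 7.18 TPM in knockout mice.

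Loxl4 and Loxl3 moved less and remained low. Loxl4 ran from 0.404 to 1.02 CPM in controls and from 1.45 to 2.52 CPM in knockout mice, without overlap (log2 difference 1.55 ± 0.30, adjusted p = 9.43e-04, edgeR). Loxl3 ran from 1.13 to 2.02 CPM in controls and from 1.94 to 4.10 CPM in knockout mice, with overlap (0.92 ± 0.25, adjusted p = 0.00811, edgeR). Loxl3 overlaps Htra2 on the opposite strand, and whether the counting used strand is not given in the sources used here.

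Plod2, the telopeptide lysyl hydroxylase, was the hydroxylase that rose. It was at 1.13, 1.26, 1.42, 2.07 and 2.32 CPM in controls and at 6.09, 6.44, 7.74, 7.99 and 8.51 CPM in knockout mice, a log2 difference of 2.19 ± 0.20 with no overlap (adjusted p = 3.05e-06, edgeR). The 2 abundant lysyl hydroxylases had small differences: Plod1, whose controls were at 58.0 to 70.5 CPM and knockout mice at 55.2 to 67.7 CPM, was at -0.08 ± 0.08, and Plod3 at 0.14 ± 0.12. Scaled by library totals without TMM, an alternative chosen after seeing the data, Plod1 was at 0.29 (adjusted p = 0.00877) and Plod3 at 0.52 (adjusted p = 0.00345), both by edgeR. That scaling moved the median of all genes to 0.38.

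The prolyl hydroxylase subunits went in opposite directions without passing the test, P4ha1 at 0.45 ± 0.18 (adjusted p = 0.0512) and P4ha2 at -0.42 ± 0.17 (adjusted p = 0.0576), both by edgeR. P4ha1 ran from 12.2 to 22.7 CPM in controls and from 17.7 to 30.3 CPM in knockout mice. P4ha2 ran from 5.74 to 8.15 CPM in controls and from 3.54 to 6.54 CPM in knockout mice. Both lay close to the threshold and crossed it under some alternatives. P4ha1 was called with upper quartile scaling (0.53, adjusted p = 0.0280), without the low-count filter (0.43, adjusted p = 0.0462) and with the replicate number as a block (0.46, adjusted p = 0.0422), all by edgeR, and in 2 of 10 fits that left out 1 mouse. P4ha2 was called by limma (-0.42, adjusted p = 0.0284) and in 3 of those 10 fits. By library totals P4ha1 was at 0.82 (adjusted p = 0.00192, edgeR) and P4ha2 at -0.05.

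**Figure D2:**
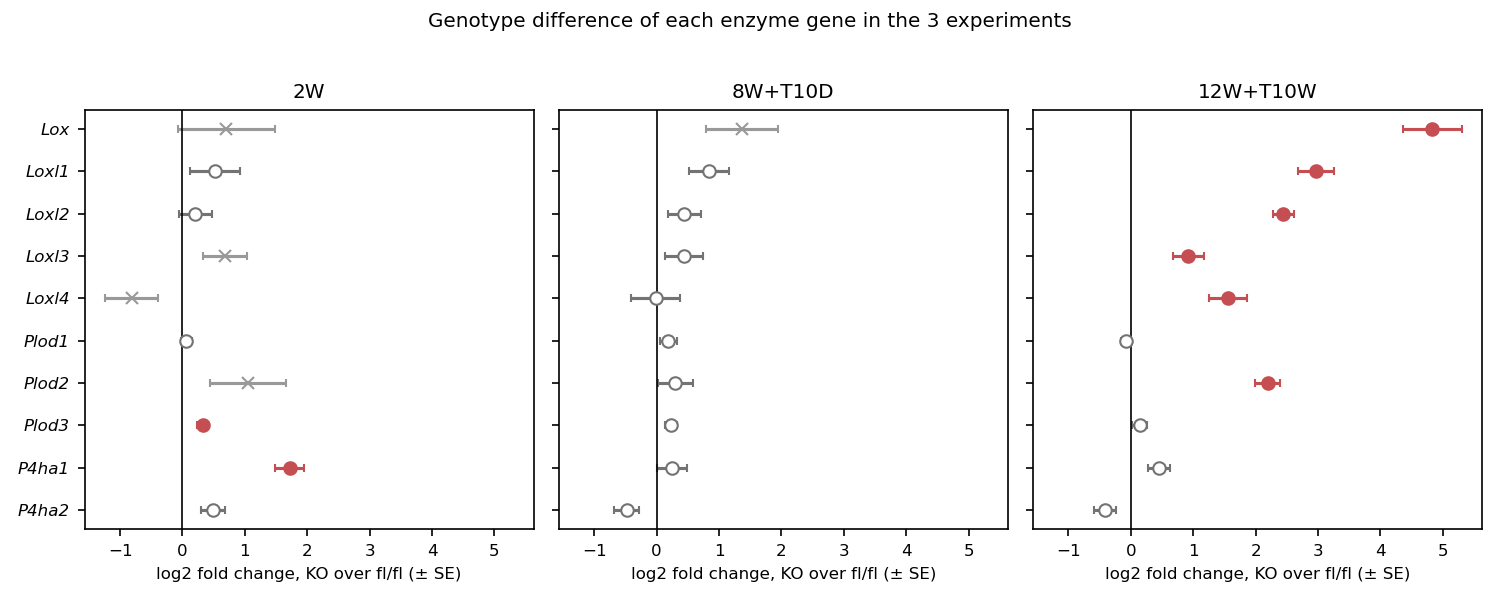
Log2 fold change of knockout (KO) over Cebpa fl/fl for each enzyme gene in the 3 experiments, with the SE as bars (n = 5 per genotype). Filled red circles passed an adjusted p of 0.05, open circles were tested and did not, and crosses are values from the fit without the low-count filter. P4ha1 at 1.72 and Plod3 at 0.33 are filled in 2W, none in 8W+T10D, and the 5 lysyl oxidases and Plod2 in 12W+T10W, where the Lox value of 4.83 depends on the prior count.

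All 14 substrates were higher in HFCFD12W+T10W, with a median of 2.49. Eln was at 5.57, the microfibril protein Fbn1 at 3.33, and the fibrillar chains Col5a2, Col3a1 and Col1a2 at 3.18, 3.39 and 2.98. Of 20 partners tested, 13 were higher and 2 lower, with a median of 0.96. Higher were the peroxidasin Pxdn, which makes sulfilimine crosslinks in type IV collagen (1.59), the collagen chaperone Serpinh1 (1.59), the procollagen protease enhancer Pcolce (1.58) and Crtap, a component of the prolyl 3-hydroxylase complex (1.44). Tmem38b was lower (-0.95). Of the 5 that could not be tested, the procollagen protease gene Tll2 had no count in any of the 30 libraries.

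Hypoxia targets were split in this experiment: 18 were tested, 3 of them were called higher and 6 lower, and their median was -0.03. The kinase gene Pdk1 was at -1.19, the mitophagy receptor Bnip3 at -1.11 and the growth factor Vegfa at -0.49, while Pfkfb4, an isoenzyme of Pfkfb3, was at 2.22. The glycolytic gene Pgk1 was at -0.34 and changed sign with library totals, under which 9 of the 18 were higher and 2 lower.

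Cell type markers moved in the same livers. All 12 stellate cell and fibroblast markers were higher, and their summed level was 307 to 374 CPM in controls and 666 to 803 CPM in knockout mice. All 6 cholangiocyte markers were higher, with sums of 4.25 to 6.56 CPM in controls and 47.3 to 74.6 CPM in knockout mice. Of 7 macrophage markers 6 were higher (100.3 to 239 and 234 to 342 CPM), of 6 endothelial markers Vwf was higher and Stab2 lower (112 to 187 and 127 to 148 CPM), and of 6 hepatocyte markers 3 were lower (96010 to 120054 and 60999 to 67236 CPM). The hepatocyte markers did not all go down. DESeq2 called 3 of them lower and 1 higher, and library totals 3 lower and 2 higher. No marker was at 0 in all libraries of a group. Their part in the enzyme result was not tested.

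**Figure D3:**
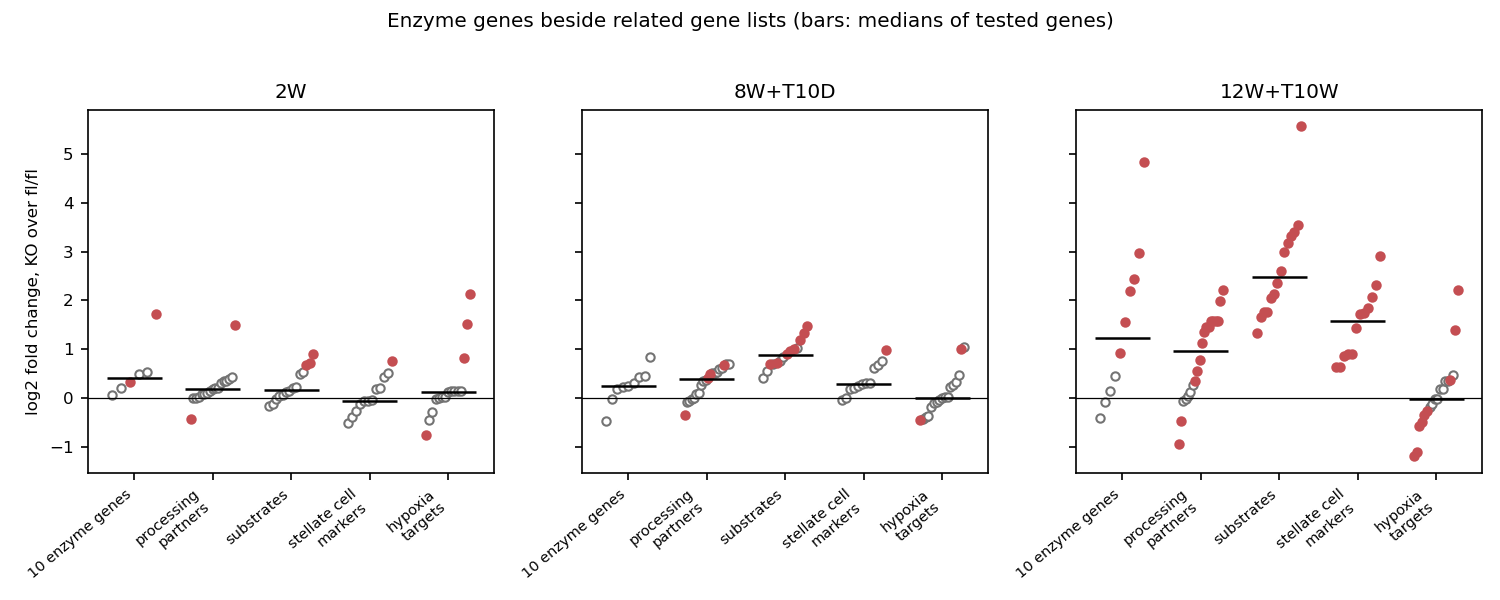
Log2 fold change (y axis) of every tested gene of 5 lists, namely the enzymes, their processing partners, their substrates, stellate cell and fibroblast markers and hypoxia targets, in the 3 experiments. Filled red points passed an adjusted p of 0.05, open points did not, and bars are medians over the tested genes of a list. In 12W+T10W the medians are 1.24 for the enzymes, 0.96 for the partners, 2.49 for the substrates, 1.57 for the stellate cell markers and -0.03 for the hypoxia targets.

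Whether the genotype difference itself changed between experiments was tested as an interaction in a fit of all libraries. The experiments differ in diet time, Cre line, tamoxifen and batch together, which cannot be told apart, and comparisons that use the same experiment share its mice. Between HFCFD12W+T10W and HFCFD8W+T10D, where the Cre line is the same, 5 of 10 members had a larger difference after 10 weeks, against 10.5% of 12964 genes called in either direction and 4.97% called in this one. They were Lox, Loxl1 (larger by 2.10 ± 0.48), Loxl2 (1.97 ± 0.34), Loxl4 (1.54 ± 0.49) and Plod2 (1.87 ± 0.38), with adjusted p-values of 6.70e-04 for Loxl2 to 0.0435 for Loxl4 by edgeR. Lox passed the low-count filter of this fit only because of the knockout mice of HFCFD12W+T10W, where it was high. It could therefore hardly be called in the other direction. Without control mouse 5 of HFCFD8W+T10D, 3 members were called, and the adjusted p rose to 0.128 for Lox and 0.0964 for Loxl4 (edgeR). Loxl4 was called in 16 of the 30 fits that left out 1 mouse each. Loxl3, called in HFCFD12W+T10W, had an interaction of 0.46 ± 0.38 that did not pass.

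P4ha1 and P4ha2 behaved otherwise. Between HFCFD8W+T10D and HFCFD2W they were the 2 members called, against 11.2% of genes called and 6.79% called lower, both with a lower difference after induced loss: P4ha1 by -1.49 ± 0.34 (adjusted p = 0.00503) and P4ha2 by -0.99 ± 0.28 (adjusted p = 0.0203), both by edgeR. Between HFCFD12W+T10W and HFCFD2W the same genes had interactions of -1.31 ± 0.35 and -0.95 ± 0.29, beside Lox, Loxl1 (2.40), Loxl2 (2.20) and Loxl4 (2.32) in the other direction, so that 6 of 10 were called against 30.7% of genes. By library totals the last interaction of P4ha2 was -0.56 (adjusted p = 0.125, edgeR). The second interaction of Lox was called in 27 of the 30 fits that left out 1 mouse each. The interactions of Lox, 3.40 ± 0.89 and 4.07 ± 1.30, rest on controls at the detection floor and depend on the prior count. Lox is counted among the called members in both, and it passed the filter because of the knockout mice of HFCFD12W+T10W.

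The controls themselves were not alike, which bears on each of these differences. Plod2 was at 0 to 0.583 CPM in the Cebpa fl/fl mice of HFCFD2W, at 1.42 to 3.82 CPM in those of HFCFD8W+T10D and at 1.13 to 2.32 CPM in those of HFCFD12W+T10W. The 2-week controls were below all others. The log2 differences from HFCFD2W were 3.32 ± 0.41 (adjusted p = 3.83e-07) and 2.54 ± 0.44 (adjusted p = 6.16e-05, edgeR). Their size is imprecise, since the 2-week control libraries held 0 to 5 counts of Plod2. With 1 mouse left out the first ran from 3.03 to 3.88. P4ha1 had the same order, 5.19 to 7.52, 14.1 to 27.3 and 12.2 to 22.7 CPM, with log2 differences of 1.68 ± 0.26 and 1.48 ± 0.26. The knockout mice of HFCFD2W, at a mean of 20.1 ± 7.3 CPM of P4ha1 (SD, n = 5), overlapped the controls of both later experiments.

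Between the controls of HFCFD8W+T10D and HFCFD2W, 5 of 10 members were called, all higher, against 43.6% of genes called and 22.1% called higher: Plod2, P4ha1, P4ha2 (1.31 ± 0.20), Loxl2 (1.37 ± 0.27) and Loxl3 (1.16 ± 0.32). Between the controls of HFCFD12W+T10W and HFCFD2W, Plod2 and P4ha1 were called, against 39.1% of genes called and 19.8% called higher. From HFCFD8W+T10D to HFCFD12W+T10W 2 were called, both lower, Loxl2 by -1.13 ± 0.26 (adjusted p = 0.00381) and P4ha2 by -0.89 ± 0.19 (adjusted p = 0.00235, edgeR), against 11.4% of genes called and 5.12% called lower. At an unadjusted p under 0.05 there were 7 (edgeR), for which no share of all genes is given here. The median was -0.80 over the members and -0.01 over all genes. Lox (-1.67 ± 0.79), Loxl1 (-0.83 ± 0.38), Loxl4 (-1.11 ± 0.38) and Plod2 (-0.78 ± 0.29) were lower without passing. With Loxl2, these had a larger genotype difference in HFCFD12W+T10W, and that interaction includes the change of the controls. The summed level of macrophage markers in controls was 71.8 to 94.9 CPM in HFCFD2W, 256 to 393 CPM in HFCFD8W+T10D and 100.3 to 239 CPM in HFCFD12W+T10W. Other markers also differed between the controls. The stellate cell and fibroblast sum was 161 to 258, 323 to 479 and 307 to 374 CPM in these groups, with 6 of 12 markers higher in HFCFD8W+T10D than in HFCFD2W, and 4 higher and 2 lower in HFCFD12W+T10W than in HFCFD2W. The endothelial sum was 105 to 137, 164 to 191 and 112 to 187 CPM, with 4 and 3 of 6 markers higher than in HFCFD2W. The part of these markers in the result was not tested.

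The order of the 6 group means differed by gene. Lox, Loxl1 and Plod2 had the knockout mice of HFCFD12W+T10W highest and clear of the next group, the knockout mice of HFCFD8W+T10D, while for Loxl2 and Loxl3 the ranges of these groups overlapped. For Lox and Loxl1 the remaining neighbours in the order overlapped. For Plod2 both HFCFD2W groups were below all others. For P4ha1 the controls of HFCFD2W were alone at the bottom and the other 5 groups overlapped their neighbours, at means of 16.9 to 22.8 CPM. For P4ha2 the controls of HFCFD8W+T10D were highest, at 12.2 ± 2.6 CPM, and the knockout mice of HFCFD12W+T10W lowest, at 4.75 ± 1.11 CPM (SD, n = 5). For Plod1, Plod3 and Loxl4 every neighbouring pair of groups overlapped.

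The balance within each family moved between the groups. The next values are ratios of TPM within a library, chosen after the levels were seen and given without a test. The ratio of P4ha1 to P4ha2 was 0.498 to 0.785 in controls and 1.38 to 2.49 in knockout mice of HFCFD2W, 0.721 to 1.40 and 1.15 to 2.86 in HFCFD8W+T10D, and 1.222 to 2.40 and 2.37 to 4.81 in HFCFD12W+T10W. P4ha2 was the more abundant subunit in all 5 controls of HFCFD2W, and P4ha1 in all 15 knockout mice and in all 5 controls of HFCFD12W+T10W.

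Plod2 was a minor lysyl hydroxylase throughout. Its share of the summed Plod TPM was 0% to 0.809% in controls of HFCFD2W, 1.11% to 3.25% in those of HFCFD8W+T10D, 1.04% to 2.71% in those of HFCFD12W+T10W and 5.65% to 7.78% in the knockout mice of HFCFD12W+T10W. The lysyl oxidases made up 4.13% to 5.88% of the TPM of all 10 genes in the controls of that experiment and 16.4% to 21.1% in its knockout mice. Within the lysyl oxidases of those knockout mice, Loxl2 held 34.0% to 51.9%, Loxl1 23.5% to 46.3% and Lox 6.53% to 14.3%. Loxl3 held 4.75% to 11.4% there and 16.97% to 46.6% in the controls, so its share was lower while its level was higher.

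**Figure D4:**
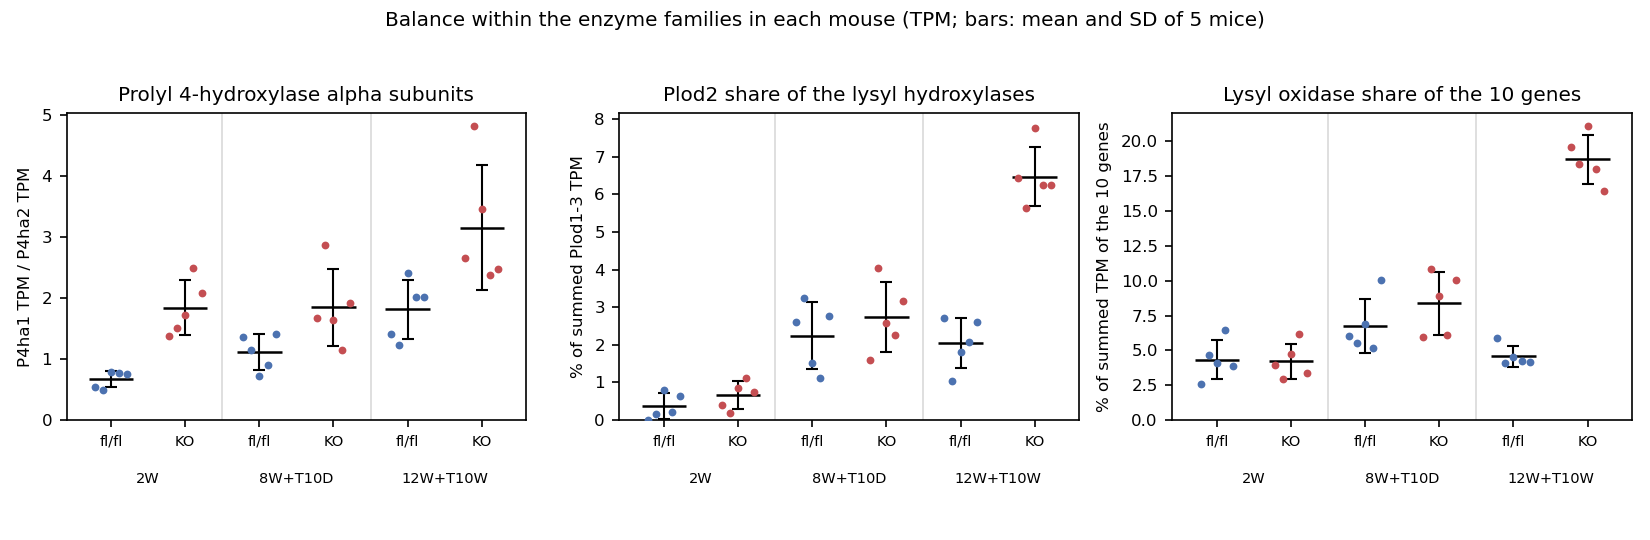
Ratio of P4ha1 to P4ha2, share of Plod2 among the 3 Plod genes and share of the 5 lysyl oxidases among all 10 genes, from TPM within each library, in each of the 30 mice (blue, Cebpa fl/fl; red, knockout, KO). Bars are means and SD of 5 mice, ending at 0 where the SD is larger than the mean. The P4ha1 to P4ha2 ratio is below 1 in every 2W control, and the Plod2 and lysyl oxidase shares of the 12W+T10W knockout mice, 5.65% to 7.78% and 16.4% to 21.1%, lie above those of all other mice.

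Mice of 1 group still differed from each other, and the genes that varied with a member across the 30 libraries were looked up from deviations of log2 CPM from the group means. Over 12102 other genes with a mean of at least 1 CPM, the closest to Loxl2 were the basement membrane genes Nid1 (Pearson r = 0.86) and Col4a1 (0.86), the closest to Loxl1 was Aebp1, which encodes a collagen-binding matrix protein (0.84), and the closest to Lox was Col4a1 (0.73). The gene closest to Plod2 was Hgf, a growth factor of stellate cells (0.82). P4ha1 had Pkm, which encodes pyruvate kinase (0.80), the heat shock gene Hspa1b (0.79) and Ckap4 (0.76). Plod1 had Por, the reductase of cytochromes P450 (0.79), Plod3 had Lsr (0.75), Loxl3 Ifit2 (0.70) and Loxl4 Sgms2 (0.74).

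The members were also compared with each other. The 45 pairs of members had r from -0.49 to 0.65 with a median of 0.20, and the highest was that of P4ha2 and Plod1. Of the 45, 38 were above 0. Among the 12102 genes, Plod1 had rank 2 for P4ha2 and Loxl2 had rank 3 for Lox (0.63). Pairs of other genes were not computed, so the median has no reference. These correlations share the libraries and their scaling, and they are given as a description of 30 mice.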

How the data were processed

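Liver mRNA of 30 mice in 6 groups was prepared with the TruSeq Stranded mRNA kit. The authors deposited RSEM expected counts per gene without normalization, as 1 table and per library, and the 2 forms differed by 0. The authors also deposited TPM per library and, as a signal, counts normalized by TMM for 15010 filtered genes. The submitters' processing notes name Trimmomatic 0.36, STAR 2.5.1, Picard 1.84, RSEM 1.2.22, DESeq2 and mm10. The gene identifiers are those of GENCODE M21. An RPKM table was not used.

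Expected counts were rounded (3.25% were not whole, 0 of the 300 values of the members). With R 4.3.3 and edgeR 4.0.16, genes were filtered by filterByExpr, scaled by TMM and compared between genotypes within each experiment by the quasi-likelihood test. P-values were adjusted by the Benjamini-Hochberg method across every tested gene. Calls needed an adjusted p below 0.05, and the text says where a fold change of more than 2 was also asked for. Interactions and differences between controls came from 1 fit of all libraries. SE are the log2 fold change divided by the root of F. CPM use the joint TMM factors, which were 0.806 to 1.03 in controls and 0.823 to 1.38 in knockout mice. DESeq2 1.42.0, limma 3.58.1 on log2(signal + 1), upper quartile scaling, no filter, the joint fit, the replicate number as a block and leaving out each mouse were alternatives. The functions were tested on simulated counts.

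All 10 members are named, and at most 5 genes of each other list, those with the smallest p. The members and lists were chosen with earlier results of these data known. Promoter sequences are from RefSeq (GRCm38.p6), matched for 5 of the 10 members. Loxl2, Plod2, Plod3 and Lox overlap annotated genes on the opposite strand, as does Loxl3. Each library is 1 mouse, and the depth of 7996142 to 10257364 counts limits the precision of Lox, Loxl3, Loxl4 and Plod2, which had under 1 CPM in some groups.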

Additional observations from a re-analysis of the deposited data

Results flagged for a closer look

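Among 60 combinations of gene and group, each of 5 mice, 5 held a mouse far from the other 4, where chance gives about 1 in 20. Lox was at 0.675 CPM in knockout mouse 4 of HFCFD2W, with the next mouse at 0.268 CPM, and at 1.28 CPM in control mouse 5 of HFCFD8W+T10D, with the next at 0.347 CPM. Loxl1 was at 15.6 CPM in knockout mouse 3 of HFCFD12W+T10W, with the next at 9.23 CPM. Loxl3 was at 2.17 CPM in knockout mouse 5 of HFCFD2W, with the next at 1.34 CPM. Plod3 was at 25.6 CPM in control mouse 4 of HFCFD2W, with the next at 20.9 CPM, and the Plod3 difference of that experiment was 0.40 without it and 0.33 with it.

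The genotype difference of 7 members differed between experiments by the edgeR interaction test. From HFCFD2W to HFCFD8W+T10D it was lower by -1.49 for P4ha1 and -0.99 for P4ha2. From HFCFD8W+T10D to HFCFD12W+T10W it was larger by 3.40 for Lox, 2.10 for Loxl1, 1.97 for Loxl2, 1.54 for Loxl4 and 1.87 for Plod2. From HFCFD2W to HFCFD12W+T10W it was larger by 4.07 for Lox, 2.40 for Loxl1, 2.20 for Loxl2 and 2.32 for Loxl4, and lower by -1.31 for P4ha1 and -0.95 for P4ha2. Of all 12964 genes, 11.2%, 10.5% and 30.7% were called in these interactions, in the same order. The share called in any of them is not given here, so the count of 7 has no reference. Diet time, Cre line, tamoxifen and batch cannot be told apart between the experiments.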

How the results depend on the processing

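The 6 calls of HFCFD12W+T10W were made in all 10 fits that left out 1 mouse and under DESeq2, limma, upper quartile scaling, no filter and the joint fit, and P4ha1 was called in HFCFD2W under each of these. By library totals, chosen after seeing the data, 2 members were called in HFCFD8W+T10D in place of 0, 9 in HFCFD12W+T10W in place of 6, 8 between the controls of HFCFD8W+T10D and HFCFD2W in place of 5, and 4 between those of HFCFD12W+T10W and HFCFD2W in place of 2. In these comparisons, in the same order, that scaling put the median log2 difference of all genes at 0.19, 0.38, 0.21 and 0.25. The share of all genes called by library totals is not given here, so these counts have no reference. That scaling also turned Plod1 in HFCFD12W+T10W to 0.289 and Loxl4 in HFCFD8W+T10D to 0.184. Loxl4 there, at -0.02 and not called, was 0.0190 with upper quartile scaling and -0.403 to 0.198 with 1 mouse left out. The joint fit called 1 member in HFCFD8W+T10D, P4ha2. With a fold change of more than 2 also asked for, 1 member remained in HFCFD2W, in the interaction of HFCFD8W+T10D and HFCFD2W and between the controls of HFCFD12W+T10W and HFCFD8W+T10D, and at an adjusted p under 0.01, 1 in HFCFD2W.

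With 1 mouse left out, the count was 1 to 3 in HFCFD2W, 0 to 1 in HFCFD8W+T10D (1 without control mouse 5), 3 to 6 for the interaction of HFCFD12W+T10W and HFCFD8W+T10D (3 without that mouse) and 2 to 4 for the controls of those experiments (4 without knockout mouse 5 of HFCFD8W+T10D). The cause of these changes was not tested. Same-numbered mice of the 2 genotypes had correlations of -0.26 to 0.22. Differently numbered mice were not compared, so these values cannot decide whether replicate numbers pair the mice. With the replicate number as a block, 1 member was called in HFCFD2W, 0 in HFCFD8W+T10D, 7 in HFCFD12W+T10W, and 2, 4 and 5 in the interactions. Lox, with at most 3 counts per control library in 2 experiments, is limited by depth.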
